A study of Mus musculus with 6 samples.

Results

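In inguinal white adipose tissue (IngWAT), 10 genes that mark adipose tissue macrophages were followed across 3 pools of *Hdac3* floxed mice and 3 pools of mice with *Hdac3* deleted in fat (H3atKO). The genes were taken by symbol, through the Ensembl identifiers of the count files and the GENCODE annotation of GRCm38, and all 10 were found among 46517 counted genes and passed the filter that kept 14967 of them. They comprise 4 general macrophage genes (*Adgre1*, *Cd68*, *Csf1r* and *Lyz2*), 2 genes of resident macrophages (*Mrc1* and *Cd163*), 3 genes of lipid-associated macrophages (*Itgax*, *Trem2* and *Gpnmb*) and the monocyte chemokine *Ccl2*.

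H3atKO mice came from *Hdac3* floxed mice of BL6 background crossed to the line B6:FVB-Tg(Adipoq-cre)1Evdr/J, whose Cre recombinase is driven by the adiponectin promoter, so that adipocytes and not macrophages are the cells in which Cre is expected to act. The controls carry the floxed *Hdac3* too and are named floxed in the labels, which do not mention Cre for them. The strain label of both genotypes is C57Bl6. Mice of both genotypes were fed chow and were 5 to 9 months old by the labels, and the study's methods describe male animals. Each sequenced sample was a pool of RNA from 2 or 3 mice, so that the pool is the replicate and p-values measure the spread between pools only. HDAC3 is a histone deacetylase, and the study compared the genotypes for its role in white fat.

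Macrophages of adipose tissue clear dead adipocytes and take up the lipid that these release. Resident macrophages near vessels carry scavenger receptors such as CD163 and the mannose receptor (*Mrc1*), depend on signalling through the receptor CSF1R and its ligands CSF1 and IL-34, and are the main macrophages of lean tissue. In obese tissue, monocytes drawn by CCL2 add macrophages that express *Itgax* (CD11c), and macrophages around dying adipocytes take on a lipid-handling state marked by *Trem2* and *Gpnmb*. F4/80 (*Adgre1*), the lysosomal protein CD68 and lysozyme (*Lyz2*) are used to mark mouse macrophages of most kinds.

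On the count of calls, a single member differed between genotypes, beside 7.07% of all tested genes down-regulated and 9.42% upregulated. *Csf1r* fell in H3atKO IngWAT, by 2.35 on the log2 scale, and the other 9 genes did not pass the test. The call of *Csf1r* was lost with a correction for GC content and when any 1 of the 5 pools other than floxed replicate 3 was left out. *Cd163* was called when pools were paired by replicate number (limma adjusted p = 0.00960), in a fit that called 28.7% of all tested genes down-regulated. The pools of one genotype differed widely, and floxed replicate 3 held the highest level of 8 of the 10 genes, beside 10.3% of all tested genes.

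The depth was 23865507 to 35200685 counts on genes per pool. Before TMM scaling, 3 counts corresponded to between 0.0852 and 0.126 cpm (counts scaled to a library of 1e+06). The gene levels in cpm given below are TMM-adjusted, with factors of 1.295 to 1.374 in floxed and 0.6634 to 0.9209 in H3atKO pools. A given count thus stands for a higher adjusted cpm in H3atKO than its unscaled value and for a lower one in floxed pools. *Hdac3*, the deleted gene, fell from 65.8 to 80.2 cpm in floxed to 12.9 to 27.4 cpm in H3atKO pools (limma voom, log2 fold change −1.83 ± 0.32 SE, adjusted p = 0.0214), and the tissue also holds cells that keep the gene. All 10 macrophage genes were counted in every pool, with 17 reads as the lowest value. The pools also differed by genotype in composition: mitochondrial genes took 6.92 to 12.9% of counts in floxed and 26.9 to 35.3% in H3atKO pools. The log2 fold change of a gene followed the GC content of its transcript (Spearman rho = −0.71 across 14922 genes, which share the same 6 libraries). Values corrected for GC content are therefore given as well, in which *Hdac3* had a log2 fold change of −2.08 (adjusted p = 0.0185). Since the dependence on GC content orders the genotypes completely, a technical and a biological part of it cannot be told apart.

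**Figure D1:**
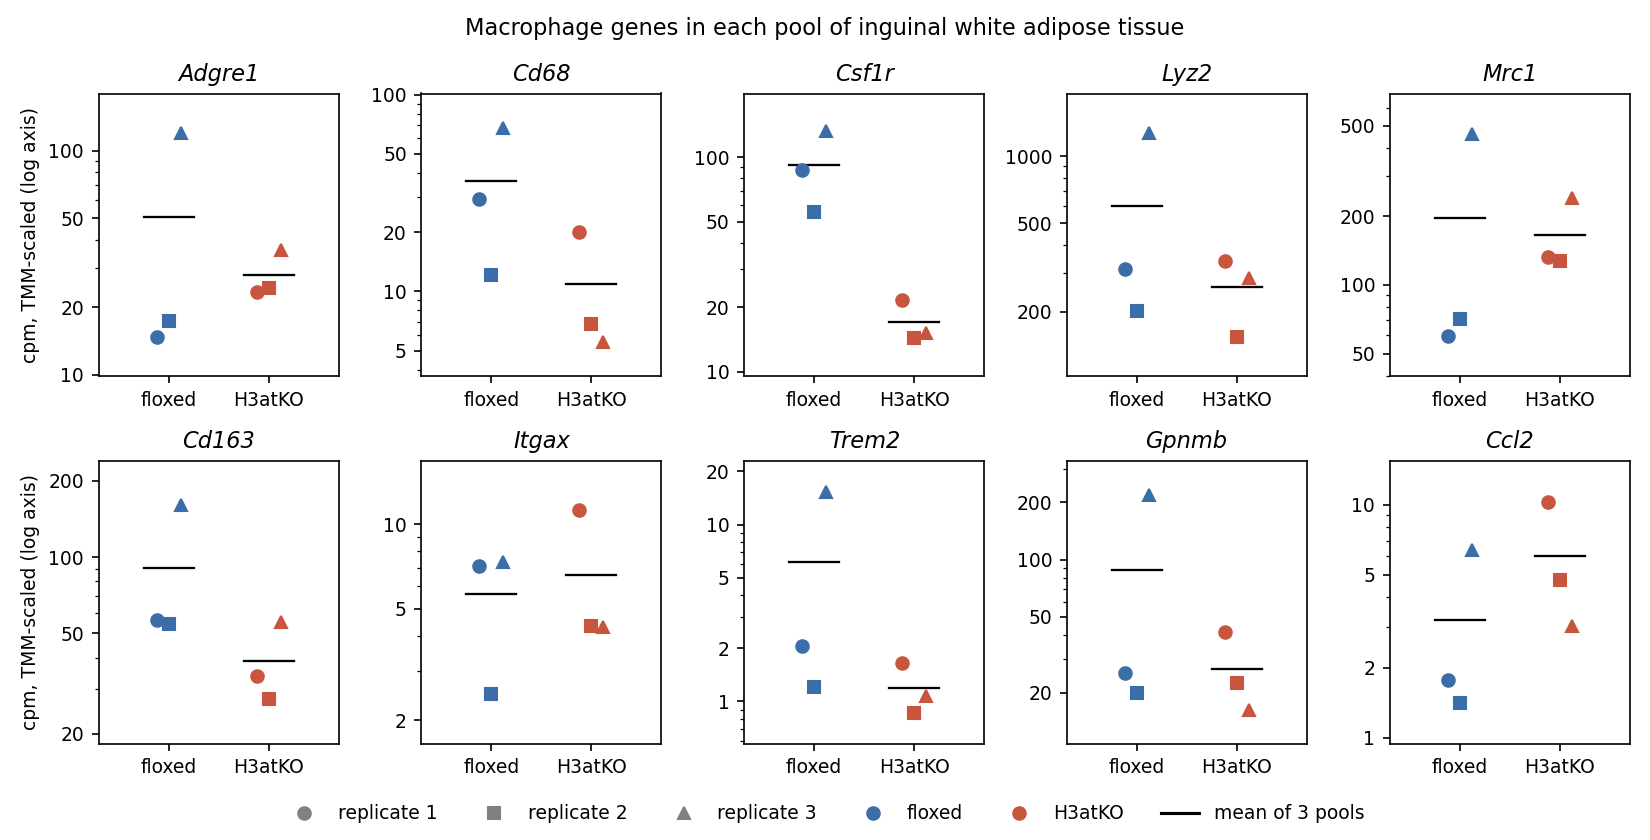
Level of each of the 10 macrophage genes in each pool, as cpm of the TMM-scaled library on a log axis that differs between panels, with the symbol giving the replicate number and the line the mean of 3 pools. Floxed replicate 3 (blue triangle) is the highest pool for 8 genes, and *Csf1r* is the panel in which all H3atKO pools, at most 21.6 cpm, lie below all floxed pools, at least 55.5 cpm.

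Per length, *Lyz2* was by far the most abundant of the 10 transcripts, with a mean of 324 RPKM over the 6 pools (reads per kilobase of exon, scaled by library). *Mrc1* followed with 28.6, *Cd68* with 18.8, *Adgre1* with 12.1, *Cd163* with 11.8, *Csf1r* with 9.42 and *Gpnmb* with 8.83 RPKM. The lowest were *Ccl2* with 4.04, *Itgax* with 1.27 and *Trem2* with 0.746 RPKM. Neighbours in this order from *Mrc1* to *Gpnmb* differed by less than their spread over pools, while *Lyz2* was above each of the other 9 genes in every pool. The adipocyte markers summed to between 4727 and 17108 RPKM, against 166 to 1229 RPKM for the 10 macrophage genes, in a tissue made mainly of fat. In bulk tissue, fewer macrophages and less RNA per macrophage cannot be told apart.

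Promoter sequence from RefSeq (GRCm38.p6) was found for 7 of the 10 genes (*Mrc1*, *Gpnmb*, *Cd163*, *Itgax*, *Lyz2*, *Cd68* and *Trem2*). Short motifs of factors known in macrophages were searched on both strands of the 250 bases before each start. PU.1, a pioneer factor of the myeloid lineage, binds purine-rich sites such as GAGGAAG, which was in 2 of the 7 windows (*Mrc1* and *Trem2*) and in 10.6% of all 32851 windows. The AP-1-type motif TGANTCA was in 3 of the 7 windows (*Itgax*, *Cd68* and *Trem2*) and in 6.75% of all windows, and C/EBP-type TTGCNNAA was in 1 (*Cd68*) and in 9.56% of all. The E-box CACGTG, bound by the lysosomal MiT/TFE factors, was in 0 of the 7 windows and in 6.02% of all. The 4 windows that held a PU.1-type or AP-1-type motif are shown, up to the first annotated start, because they hold the matches of these genes, and capitals mark these 2 motifs on either strand, with the C/EBP-type match of *Cd68* kept in lower case.
Mrc1, chr2:14229164-14229391, plus strand: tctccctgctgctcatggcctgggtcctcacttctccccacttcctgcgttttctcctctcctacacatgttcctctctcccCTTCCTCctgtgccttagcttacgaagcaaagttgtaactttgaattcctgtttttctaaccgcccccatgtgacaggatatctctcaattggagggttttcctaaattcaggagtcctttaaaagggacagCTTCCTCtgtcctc
Trem2, chr17:48346151-48346400, plus strand: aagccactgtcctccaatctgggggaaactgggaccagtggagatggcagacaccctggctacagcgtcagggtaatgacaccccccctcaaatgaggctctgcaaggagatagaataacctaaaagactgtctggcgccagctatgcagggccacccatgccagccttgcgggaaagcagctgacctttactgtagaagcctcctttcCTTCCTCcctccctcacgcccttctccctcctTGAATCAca
Cd68, chr11:69666171-69666420, minus strand: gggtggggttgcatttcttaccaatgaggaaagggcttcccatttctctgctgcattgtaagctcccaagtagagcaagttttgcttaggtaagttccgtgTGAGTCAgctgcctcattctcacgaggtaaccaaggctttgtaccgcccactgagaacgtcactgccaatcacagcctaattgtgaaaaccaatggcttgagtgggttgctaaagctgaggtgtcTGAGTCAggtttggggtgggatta
Itgax, chr7:128129300-128129546, plus strand: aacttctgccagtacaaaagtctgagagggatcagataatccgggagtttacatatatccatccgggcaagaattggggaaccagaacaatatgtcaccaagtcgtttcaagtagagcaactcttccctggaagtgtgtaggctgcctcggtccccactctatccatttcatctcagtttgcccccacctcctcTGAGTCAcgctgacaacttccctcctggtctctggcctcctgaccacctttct

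Among the general macrophage genes, *Csf1r* (ENSMUSG00000024621) encodes the receptor tyrosine kinase for CSF1 and IL-34. *Csf1r* was at 87.5, 55.5 and 132 cpm in floxed replicates 1 to 3 and at 21.6, 14.3 and 15.1 cpm in H3atKO replicates 1 to 3. All H3atKO pools were below all floxed pools, and within same-numbered pools the H3atKO level was 0.247, 0.258 and 0.114 times the floxed level. The difference was a 5.09-fold decrease (log2 fold change −2.35 ± 0.41 SE, limma adjusted p = 0.0219). Of the 10 genes 1 was thus down-regulated and 0 upregulated, where 7.07% of all tested genes were down-regulated and 9.42% upregulated. The share of 1 in 10 is near that background. At an unadjusted p under 0.05 limma had 0 genes up and 1 down, and edgeR and DESeq2 each had 0 and 4. After adjustment edgeR called 0 and 1, and DESeq2 called 0 and 3. The median log2 fold change of the 10 genes was −0.86, beside −0.09 for all tested genes.

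*Csf1r* has a GC content of 54.5%, and genes of its GC decile had a median log2 fold change of −1.03. After the GC correction its log2 fold change was −1.22 ± 0.55 SE (adjusted p = 0.186), so that the call was lost, and with the replicate number as a block as well it was −1.202 ± 0.314 SE (adjusted p = 0.0465). Leaving out any 1 pool other than floxed replicate 3 gave log2 fold changes of −2.67 to −2.27 with adjusted p of 0.0530 to 0.0892, and without floxed replicate 3 it was −2.03 with an adjusted p of 0.00726. Annotated *Hmgxb3* overlaps *Csf1r* on the other strand, and whether strand was used in counting is not given in the sources used here.

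*Adgre1* (ENSMUSG00000004730), the adhesion receptor F4/80, was at 14.8, 17.4 and 120 cpm in floxed and at 23.3, 24.4 and 35.9 cpm in H3atKO replicates 1 to 3. Floxed replicate 3 stood far above the other 5 pools, in which every H3atKO pool was above both floxed pools. With 6 pools the log2 fold change was −0.21 ± 0.81 SE (adjusted p = 0.853), and without floxed replicate 3 it turned to 0.76 ± 0.30 SE (adjusted p = 0.0792), so that no direction was resolved for this marker.

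*Cd68* (ENSMUSG00000018774), a lysosomal and endosomal glycoprotein, was at 29.6, 12.1 and 67.6 cpm in floxed and at 20.1, 6.83 and 5.56 cpm in H3atKO replicates 1 to 3. The groups overlapped through H3atKO replicate 1 and floxed replicate 2, although H3atKO was the lower in each same-numbered pair. The log2 fold change of −1.60 ± 0.80 SE did not pass the limma test (adjusted p = 0.160), nor with the replicate block (adjusted p = 0.0682) or the GC correction (adjusted p = 0.594). DESeq2 gave an adjusted p of 0.0375.

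*Lyz2* (ENSMUSG00000069516), the lysozyme of macrophages and granulocytes, was at 310, 202 and 1276 cpm in floxed and at 338, 154 and 283 cpm in H3atKO replicates 1 to 3. Apart from floxed replicate 3, the pools of both genotypes covered the same range (log2 fold change −0.82 ± 0.66 SE, limma adjusted p = 0.358, and −0.03 without floxed replicate 3). *Lyz2* lies beside the near-identical *Lyz1*, which was counted at 132 to 956 reads per pool against 3021 to 52528 for *Lyz2*. Reads that fit both were given to neither, so the level of *Lyz2* is uncertain. The 8 neutrophil markers, of cells that also express *Lyz2*, summed to 5.21 to 10.98 RPKM in floxed and 4.90 to 9.48 RPKM in H3atKO pools, with 2 of them at 0 in some pool.

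*Mrc1* (ENSMUSG00000026712), the mannose receptor CD206, was at 59.6, 70.9 and 462 cpm in floxed and at 132, 127 and 240 cpm in H3atKO replicates 1 to 3. The H3atKO pools lay above floxed replicates 1 and 2 and below floxed replicate 3. With 6 pools the log2 fold change was 0.35 ± 0.75 SE (limma adjusted p = 0.734). Without floxed replicate 3 *Mrc1* was called upregulated, by 1.298 ± 0.340 SE (adjusted p = 0.0211), and after the GC correction it turned to −0.40 ± 0.62 SE (adjusted p = 0.690). The GC content of *Mrc1* is 43.4%, the lowest of the 10 genes, and genes of its GC decile had a median log2 fold change of 0.90.

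*Cd163* (ENSMUSG00000008845), the scavenger receptor for haemoglobin bound to haptoglobin, was at 56.2, 54.1 and 160 cpm in floxed and at 33.7, 27.4 and 55.3 cpm in H3atKO replicates 1 to 3. The groups overlapped through H3atKO replicate 3 alone, which exceeded floxed replicate 2 by little. Within same-numbered pools the H3atKO level was 0.5999, 0.506 and 0.346 times the floxed level. The log2 fold change of −1.10 ± 0.49 SE was not called without pairing (limma adjusted p = 0.126). With the replicate block *Cd163* fell by 1.09 ± 0.22 SE on the log2 scale (adjusted p = 0.00960), and with block and GC correction it fell by 1.21 ± 0.20 SE (adjusted p = 0.0168). Its GC content of 47.9% is close to the median of all tested genes, 49.2%, and its GC decile had a median log2 fold change of 0.11.

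With the replicate block, 2 of the 10 genes were down-regulated (*Csf1r* and *Cd163*) and 0 upregulated, where 28.7% and 24.8% of all tested genes were called. With the GC correction the counts were 0 and 0, beside 3.11% and 5.39%, and with both they were 2 and 0, beside 9.87% and 13%. Without floxed replicate 3, *Mrc1* and *Ccl2* were called upregulated and *Csf1r* down-regulated, beside 18.5% and 25.9% of tested genes. In cpm, 1 of the 10 genes had every H3atKO pool below every floxed pool and 0 had every H3atKO pool above, while 28.6% and 23.1% of all tested genes did so. In same-numbered pairs, 4 of the 10 genes (*Cd68*, *Csf1r*, *Cd163* and *Trem2*) were lower in H3atKO in all 3 pairs and 0 were higher in all 3, beside 39.4% and 33.6% of all tested genes. The widest excess over the background in these counts was 2 of 10 down-regulated beside 9.87%.

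**Figure D2:**
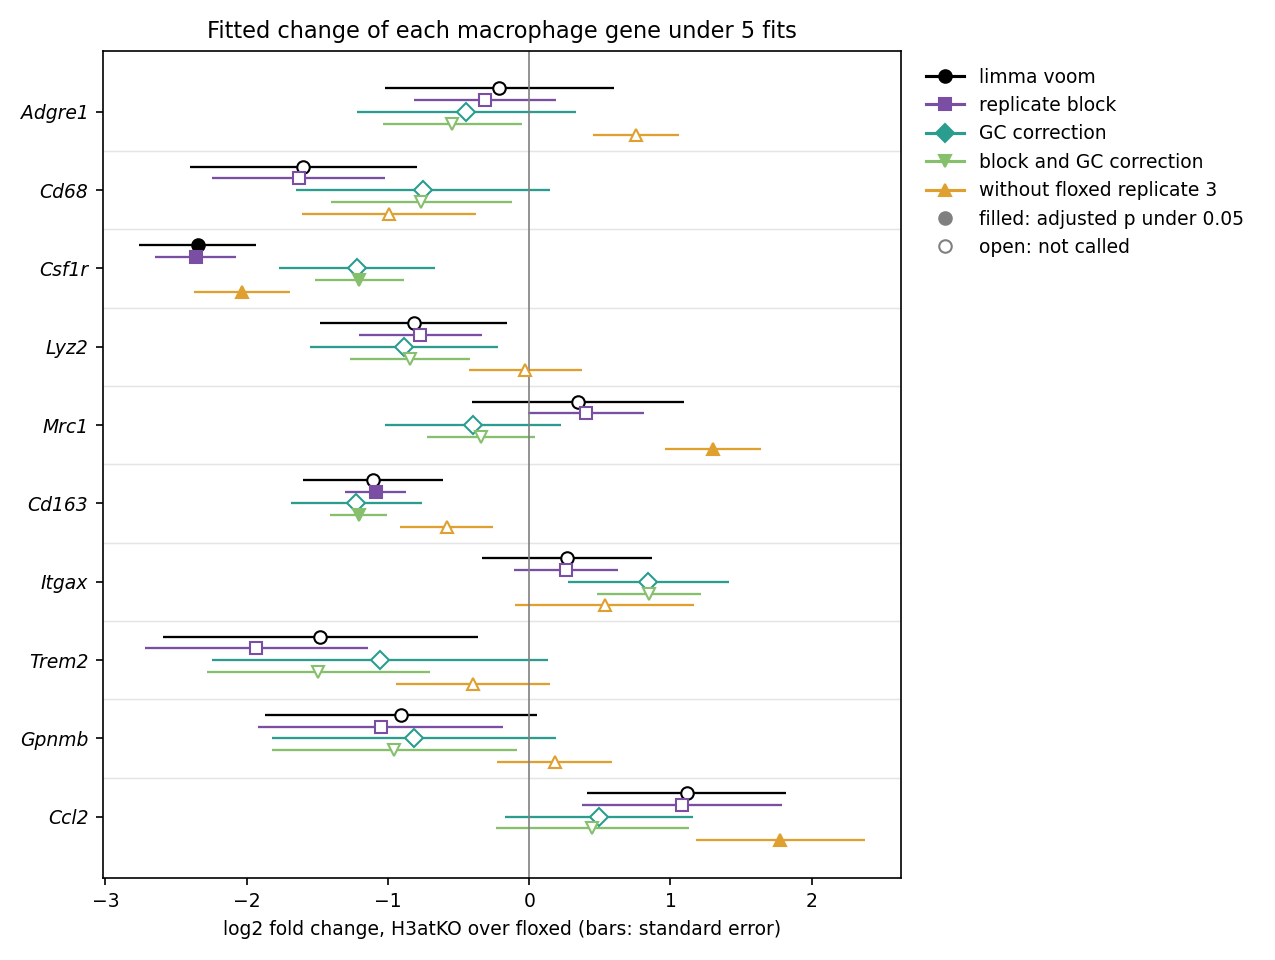
Log2 fold change of H3atKO over floxed (x axis, bars give 1 standard error) of each macrophage gene under the limma voom fit with 6 pools, with the replicate block, with the GC correction, with both, and without floxed replicate 3; filled symbols passed an adjusted p of 0.05. *Csf1r* lies below 0 in all 5 fits, *Cd163* is filled where the block was used, and *Adgre1*, *Mrc1* and *Gpnmb* have fits on both sides of 0.

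Of the lipid-associated genes, *Trem2* and *Gpnmb* were far higher in floxed replicate 3 than in the other 5 pools, and *Itgax* was not. *Trem2* (ENSMUSG00000023992), a lipid-sensing receptor that signals through the adaptor TYROBP, was at 2.06, 1.20 and 15.3 cpm in floxed and at 1.65, 0.866 and 1.07 cpm in H3atKO replicates 1 to 3. The counts behind the H3atKO values were 40, 17 and 17 reads. The groups overlapped, and the log2 fold change of −1.48 ± 1.12 SE was not called (limma adjusted p = 0.324), with −0.40 ± 0.55 SE left without floxed replicate 3. DESeq2 gave an adjusted p of 0.0288.

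*Gpnmb* (ENSMUSG00000029816), a glycoprotein of lysosomes and the cell surface, was at 25.5, 19.99 and 219 cpm in floxed and at 41.6, 22.5 and 16.2 cpm in H3atKO replicates 1 to 3. Floxed replicate 3 was 9.64 times the mean of the other floxed pools, the highest such ratio of the 10 genes. The log2 fold change of −0.91 ± 0.96 SE (limma adjusted p = 0.480) turned to 0.18 ± 0.41 SE without that pool (adjusted p = 0.729).

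*Itgax* (ENSMUSG00000030789), the integrin CD11c of dendritic cells and inflammatory macrophages, was at 7.06, 2.47 and 7.31 cpm in floxed and at 11.2, 4.33 and 4.30 cpm in H3atKO replicates 1 to 3. The pools of the genotypes were interleaved (log2 fold change 0.27 ± 0.60 SE, limma adjusted p = 0.745). *Itgax* was one of the 2 genes whose highest pool was not floxed replicate 3. The dendritic cell genes *Xcr1* and *Clec9a*, markers of cross-presenting dendritic cells, rose in H3atKO (limma log2 fold change 2.90, adjusted p = 0.0348, and 2.69, adjusted p = 0.0301). Neither passed with the GC correction alone (adjusted p = 0.0722 and 0.0524), and both passed with block and GC correction (adjusted p = 0.0172 and 0.0134). They were 2 of 8 dendritic cell genes, beside 9.42% of all tested genes upregulated, and the other 6 were not called in this fit. Among the 6 were *Cd209a* (0.00, adjusted p = 0.998) and *Fscn1* (−1.53, adjusted p = 0.282, and 0.0148 with the block). With the block 3 of the 8 were upregulated and 1 down-regulated, beside 24.8% and 28.7% of all tested genes. With block and GC correction 4 were upregulated and 0 down-regulated, beside 13% and 9.87%, with *Flt3* (limma adjusted p = 0.0182) and *Ccr7* (adjusted p = 0.0252) among the 4. The summed level of the 8 dendritic cell genes was 12.2 to 23.5 RPKM in floxed and 12.2 to 31.4 RPKM in H3atKO pools, and its part in the values of *Itgax* was not tested.

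*Ccl2* (ENSMUSG00000035385), the chemokine that draws CCR2-positive monocytes, was at 1.78, 1.42 and 6.39 cpm in floxed and at 10.2, 4.74 and 3.03 cpm in H3atKO replicates 1 to 3. Every H3atKO pool was above floxed replicates 1 and 2, and floxed replicate 3 was second of the 6 pools. The log2 fold change of 1.11 ± 0.71 SE was not called (limma adjusted p = 0.248). Without floxed replicate 3 *Ccl2* was upregulated, by 1.78 ± 0.60 SE (adjusted p = 0.0471), and with the GC correction its log2 fold change was 0.49 ± 0.67 SE (adjusted p = 0.639). The annotated gene *Gm17268* overlaps it on the other strand.

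Floxed replicate 3 was 1.53 to 9.64 times the mean of the other floxed pools over the 10 genes, with a median of 4.49, while the median over all tested genes was 0.959. A ratio of at least 2 was found in 8 of the 10 genes, in 39 of 79 other macrophage genes tested and in 10.4% of all tested genes. The same pool was high in stromal progenitor markers, at 1247 RPKM against 309 to 397 RPKM in the other 5 pools, and in skeletal muscle markers it was at 1159 RPKM, with H3atKO replicate 2 at 1308 and H3atKO replicate 3 at 1.13 RPKM. Adipocyte markers summed to 5480 RPKM there, beside 17108 and 10102 RPKM in floxed replicates 1 and 2. B and T cell markers took another order: B cell genes summed to 55.9, 92.5 and 92.8 RPKM in floxed replicate 1 and H3atKO replicates 1 and 3 and to at most 2.12 RPKM in the other 3 pools. The part of this make-up in the levels of the 10 genes was not tested.

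**Figure D3:**
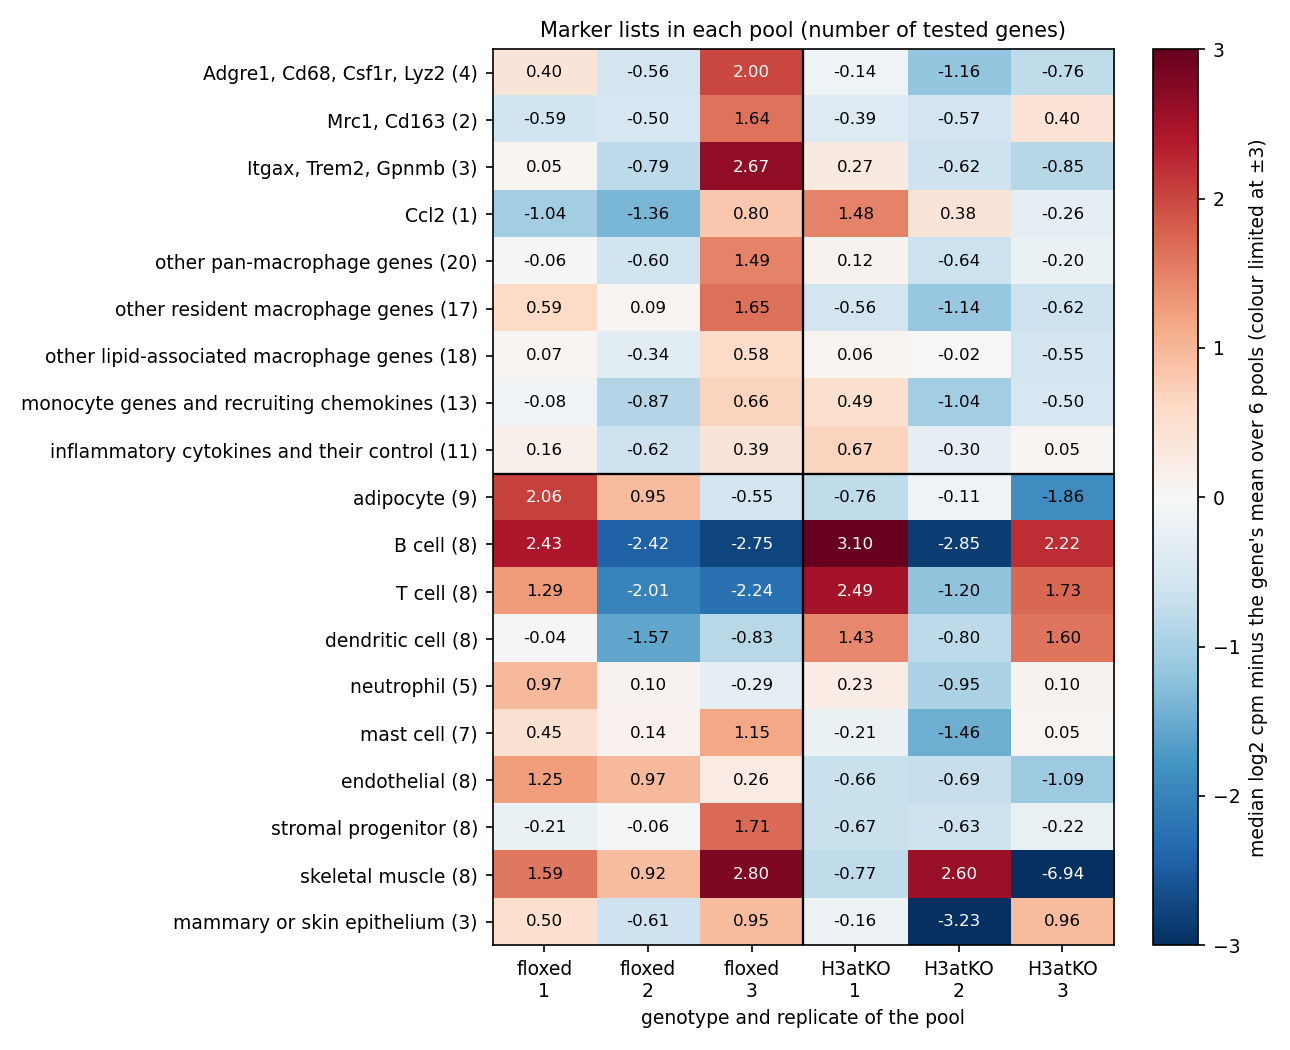
Median over the tested genes of each marker list (number in brackets) of the log2 cpm minus the gene's mean over the 6 pools, for each pool, with red above and blue below the mean and the colour limited at 3. The macrophage rows above the line are highest in floxed replicate 3 in 7 of 9 rows, while B cell and T cell rows are high in floxed replicate 1 and H3atKO replicates 1 and 3.

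Ratios of genes within a pool do not depend on the scaling of the library, so each of the other 9 genes was set against *Adgre1*. The groups did not overlap in 2 of the 9 ratios. *Csf1r* per *Adgre1* was 3.32, 1.78 and 0.618 in floxed and 0.519, 0.329 and 0.236 in the H3atKO replicates 1 to 3, in RPKM. Every H3atKO pool was below every floxed pool, as was the case for 1.76% of all tested genes set against *Adgre1*. The mean log2 ratio differed by −2.17, from 0.62 ± 1.23 (SD, n = 3 pools) to −1.55 ± 0.57 (two-sided exact permutation p = 0.1, the smallest that 3 pools against 3 allow, adjusted p = 0.338 over the 9 ratios). After the GC correction the difference was −0.78 (exact permutation p = 0.2). Relative to *Cd68* in place of *Adgre1* it was −0.71 (exact permutation p = 0.3), and the groups overlapped.

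*Mrc1* per *Adgre1* was 2.05, 2.07 and 1.96 in floxed and 2.88, 2.64 and 3.40 in the H3atKO replicates 1 to 3. The floxed pools held this ratio within a narrow range even though floxed replicate 3 was 7.08 times the mean of the other floxed pools in *Mrc1* and 7.45 times in *Adgre1*. Every H3atKO pool was above every floxed pool, which 15.2% of all tested genes also showed, and the mean log2 ratio was higher by 0.55 (exact permutation p = 0.1, adjusted p = 0.338). With GC-corrected values the difference was 0.04 (exact permutation p = 0.8), and relative to *Cd68* it was 2.01 with overlapping groups (exact permutation p = 0.2). For the other 7 genes the groups overlapped, with *Cd68*, *Cd163*, *Lyz2*, *Trem2* and *Gpnmb* lower on average per *Adgre1* in H3atKO and *Itgax* and *Ccl2* higher, at exact permutation p of 0.2 to 0.7.

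**Figure D4:**
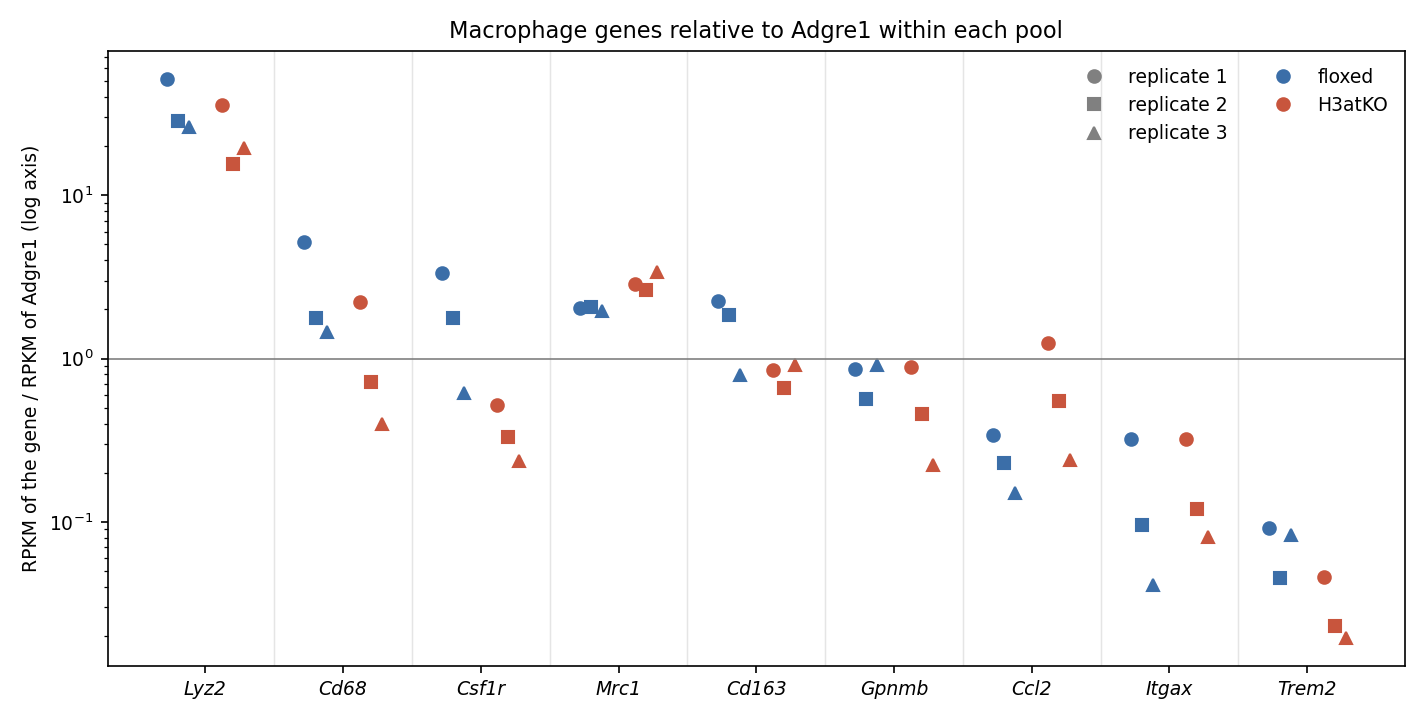
RPKM of each macrophage gene divided by the RPKM of *Adgre1* in the same pool, on a log axis, with the symbol giving the replicate number. The groups are apart for *Csf1r*, where H3atKO is lower, and for *Mrc1*, where H3atKO is between 2.64 and 3.40 and floxed between 1.96 and 2.07.

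The ligands of CSF1R were measured in the same pools. *Csf1*, the main growth factor of macrophages, was at 55.3, 52.7 and 51.7 cpm in floxed and at 16.2, 13.7 and 19.5 cpm in H3atKO replicates 1 to 3. *Il34*, the other ligand, was at 13.7, 9.87 and 2.94 cpm in floxed and at 0.576, 0.662 and 0.505 cpm in H3atKO replicates 1 to 3. The groups were apart in both, and floxed replicate 3 was not the highest pool in either.

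*Csf1* fell by 1.72 ± 0.26 SE on the log2 scale (limma adjusted p = 0.0151) and *Il34* by 3.62 ± 0.95 SE (adjusted p = 0.0437). After the GC correction the log2 fold changes were −0.60 (adjusted p = 0.279) and −1.88 (adjusted p = 0.0577), and with block and GC correction *Il34* was called (adjusted p = 0.0300) and *Csf1* was not (adjusted p = 0.0836). GC contents are 54.4% for *Csf1* and 57.0% for *Il34*. Receptor and both ligands were thus called down-regulated without the GC correction and not called with it alone. The down-regulated shares of all tested genes were 7.07% and 3.11% in these limma fits. With 1 pool left out, *Csf1* kept its call in 3 of 6 fits and *Il34* in 1 of 6 (largest limma adjusted p = 0.0881 and 0.155). The H3atKO values of *Il34* rest on 14, 13 and 8 reads.

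Further macrophage genes were read from 5 lists that exclude the 10 genes, with 83 genes, of which 79 were tested. In the fit with 6 pools 1 was upregulated and 13 were down-regulated, with 8 and 24 under the replicate block, 0 and 4 under the GC correction and 7 and 9 under both. The upregulated shares of all tested genes were 9.42%, 24.8%, 5.39% and 13% in these fits, and the down-regulated shares 7.07%, 28.7%, 3.11% and 9.87%. Without floxed replicate 3 the counts were 13 and 21 of 77 tested, beside 18.5% and 25.9%. The 24 and 21 down-regulated genes were thus close to the background of their fits. Outside the *Lpl* list limma called 0 genes upregulated, as did edgeR, while DESeq2 called 2 and an unadjusted limma p under 0.05 gave 2.

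Of the resident macrophage list, 7 of 17 tested genes were down-regulated and 0 upregulated, with a median log2 fold change of −1.68, where 7.07% of all tested genes were down-regulated. With the replicate block 10 were down-regulated and 2 upregulated, *Timd4* (limma adjusted p = 0.0248) and *Maf* (adjusted p = 0.0452), beside 28.7% and 24.8% of all tested genes. With the GC correction the counts were 3 and 0, beside 3.11% and 5.39%, and with both 7 and 0, beside 9.87% and 13%. The 7 genes were *Retnla*, *Stab1*, *Gas6*, *Ccl24*, *Cbr2*, *Cd209f* and *Cd209g*, of which *Retnla*, *Gas6* and *Ccl24* also passed with the GC correction. *Retnla*, a secreted protein of alternatively activated macrophages that adipocytes also make, was at 159, 153 and 275 cpm in floxed and at 49.5, 57.2 and 73.8 cpm in H3atKO pools. The groups were apart in every pool. It fell by 1.68 ± 0.31 SE on the log2 scale (limma adjusted p = 0.0243), and it also passed with the GC correction (log2 fold change −1.98, adjusted p = 0.0118). *Gas6*, the bridging ligand of the receptors that engulf dead cells, fell by 3.26 ± 0.48 SE (adjusted p = 0.0151, and 0.0182 with the GC correction). *Stab1*, the scavenger receptor stabilin-1, which endothelial cells also carry, fell by 3.35 ± 0.44 SE (adjusted p = 0.0118) and did not pass with the GC correction alone (adjusted p = 0.0751), but did with block and GC correction (adjusted p = 0.0316). Others of the list, such as *Lyve1* (−0.28, adjusted p = 0.826) and *F13a1* (−0.56, adjusted p = 0.529), did not pass. Of the 17 tested genes 14 had a negative and 3 a positive log2 fold change in the limma fit with 6 pools. The 3 were *Chil3* (2.20, adjusted p = 0.109, and 1.67 with the GC correction), *Timd4* (1.25, adjusted p = 0.448) and *Maf* (0.71, adjusted p = 0.389). Of 8 endothelial markers 4 fell, beside 7.07% of all tested genes, with 6 called under the block, 3 after GC correction and 7 under both. Their sum went from 120 to 234 RPKM in floxed to 69.8 to 93.1 RPKM in H3atKO pools, and their part in the shared genes was not tested.

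Of 20 other general macrophage genes, 4 were down-regulated (*C1qa*, *C1qb*, *C1qc* and *Tyrobp*) and 0 upregulated, beside 7.07% and 9.42% of all tested genes. With the GC correction 0 passed. *C1qb*, a subunit of complement C1q, fell by 3.47 ± 0.67 SE (limma adjusted p = 0.0256) from 84.8, 34.5 and 96.4 cpm in floxed to 12.5, 5.25 and 2.78 cpm in H3atKO pools. *C1qc* fell by 1.96 ± 0.50 SE (adjusted p = 0.0418). With the GC correction the log2 fold changes were −1.64 for *C1qb* (adjusted p = 0.232) and −0.10 for *C1qc* (adjusted p = 0.936), with GC contents of 57.4% and 57.5%. *Ctss*, the cathepsin with the highest level of the list, was at 56.9, 24.3 and 326 cpm in floxed and at 190, 63.3 and 255 cpm in H3atKO pools, in which the groups overlapped (adjusted p = 0.465).

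Of 18 other lipid-associated genes, limma called 1 upregulated and 0 down-regulated, beside 9.42% and 7.07% of all tested genes. edgeR called 1 and 2, and DESeq2 3 and 3. Pairing by the block gave 2 upregulated genes (*Lpl* and *Cd36*) and 5 that fell (*Cd9*, *Ctsd*, *Ctsk*, *Apoe* and *Lgmn*). This was beside 24.8% and 28.7% of all tested genes, so the 5 of 18 were near the background. The GC correction gave 0 and 1 (*Cd9*, limma adjusted p = 0.0221), beside 5.39% and 3.11%, and both together gave 2 and 1, beside 13% and 9.87%. *Lpl*, the lipoprotein lipase that adipocytes also make in bulk, rose by 2.02 ± 0.39 SE on the log2 scale (limma adjusted p = 0.0253), with every H3atKO pool above every floxed pool, and had an adjusted p of 0.0544 with the GC correction. *Lgmn*, a lysosomal protease, was at 85.0, 54.4 and 196 cpm in floxed and at 42.7, 22.1 and 20.7 cpm in H3atKO pools. The groups were apart and the limma test without pairing was missed (adjusted p = 0.0556), while *Lgmn* was called with the replicate block (adjusted p = 0.0190), by edgeR (0.0334) and by DESeq2 (0.00277). With the GC correction its adjusted p was 0.220. Of 13 monocyte and chemokine genes tested, 2 were down-regulated (*Csf1* and *Il34*) and 0 upregulated, beside 7.07% and 9.42% of all tested genes. *Ccl6*, the chemokine of this list with the highest level, followed floxed replicate 3 (711 cpm against 64.7 to 152 cpm in the other pools).

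Of 11 inflammatory genes tested, limma called 0 in either direction, with 1 up and 1 down at an unadjusted p under 0.05. edgeR called 0 up and 1 down, and DESeq2 called 1 and 1. Limma with the replicate block called 1 and 1, beside 24.8% and 28.7% of all tested genes. *Casp1*, the protease that activates interleukin-1β, was at 11.1, 11.8 and 38.6 cpm in floxed and at 47.1, 41.2 and 67.6 cpm in H3atKO pools (limma log2 fold change 1.56 ± 0.49 SE, adjusted p = 0.0617, and 0.00821 with the block). With the GC correction it was 0.58 (adjusted p = 0.261, and 0.183 with the block as well). The log2 fold change of *Tgfb1* was −1.44 (adjusted p = 0.0729, or 0.0123 under the block), and −0.67 with the GC correction (adjusted p = 0.253, or 0.141 with both). That of *Nfkbia* was 0.42 (adjusted p = 0.360) and, with block and GC correction, 1.27 (adjusted p = 0.0144).

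**Figure D5:**
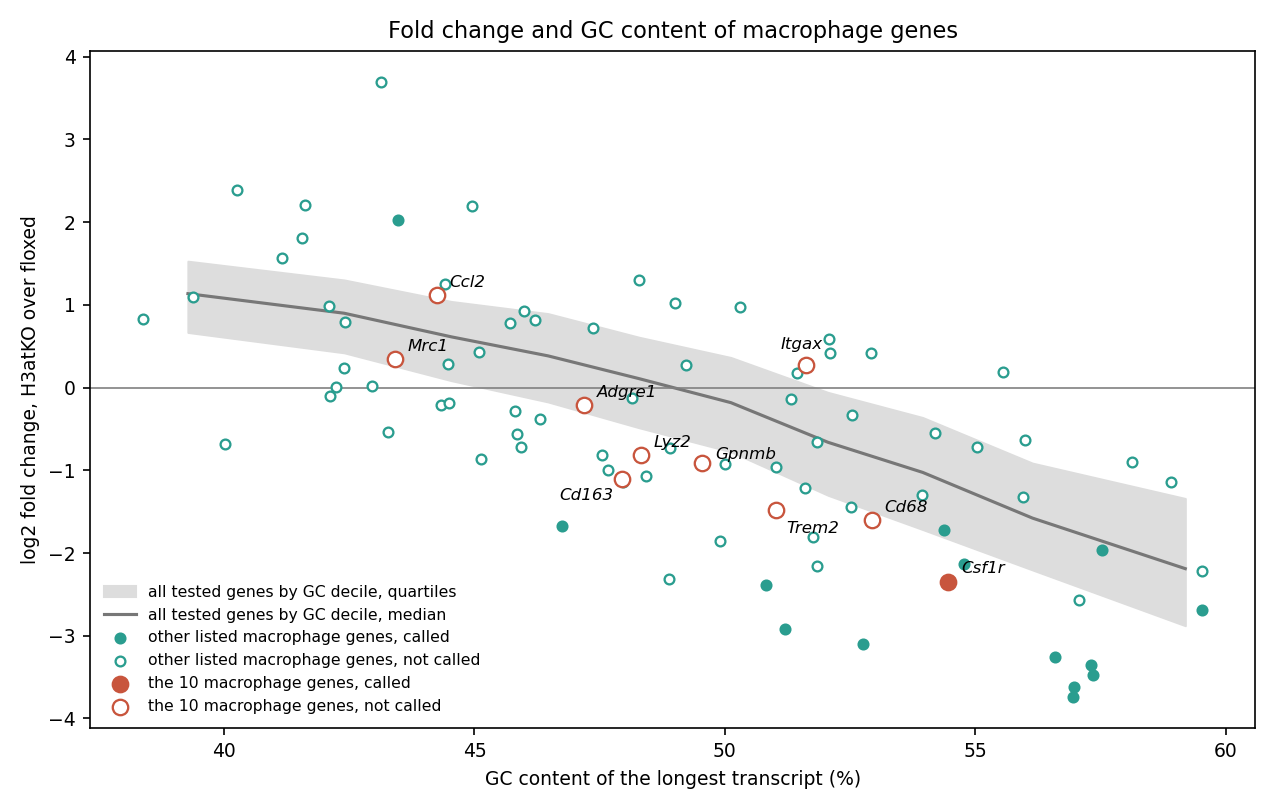
Log2 fold change of H3atKO over floxed (y axis) against the GC content of the longest transcript in percent (x axis) for the 10 macrophage genes (red) and the other listed macrophage genes (green), filled where called, with the median and quartiles of all tested genes by GC decile in grey. *Csf1r* lies below the quartile band at 54.5% GC, and *Mrc1* and *Ccl2* lie above 0 where the grey median does as well.

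The genes on no list whose levels were most like the general macrophage genes were found by Pearson's r over the 6 pools with the mean z-score of *Adgre1*, *Cd68*, *Csf1r* and *Lyz2*, among 8283 genes with a mean of at least 3 log2 cpm. They were *Rab7b* (r = 0.992), *Myof* (0.984), *Pdpn* (0.980), *Fcgr3* (0.976) and *Gas7* (0.976). These values describe 6 pools and rest much on floxed replicate 3, since without it r was 0.871, 0.855, 0.689, 0.588 and 0.712 in the same order. *Rab7b* encodes a small GTPase of the endosomal pathway and *Fcgr3* a receptor for IgG carried by macrophages and natural killer cells. *Fcgr3* was at 25.05, 22.8 and 94.7 cpm in floxed and at 17.9, 14.3 and 13.4 cpm in H3atKO pools. Every H3atKO pool of *Fcgr3* was thus below every floxed pool, as in *Myof*, *Pdpn* and *Gas7* and in 28.6% of all tested genes. The highest H3atKO and lowest floxed pool were close in *Myof* (27.07 and 28.69 cpm) and *Pdpn* (9.875 and 10.19 cpm). The 5 genes were picked over these same pools by a score that includes *Csf1r*, so their separation is not independent of the choice. Without pairing 0 of the 5 were called (limma adjusted p of 0.107 to 0.237). *Gas7* was called with the replicate block (adjusted p = 0.0325), and DESeq2 called *Gas7*, *Fcgr3* and *Pdpn* (adjusted p = 0.0132, 0.0218 and 0.0406).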

How the data were processed

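Poly(A)-selected stranded libraries of 6 pools were made by the authors, who trimmed reads with Cutadapt 1.3, aligned them with STAR 2.4.2a (GRCm38) and obtained gene counts with htseq-count 0.6.1 on Ensembl annotation. The deposited values are these counts per gene, neither normalized nor filtered, and reads aligning to several places were in tallies of no gene. Symbols, exon lengths and GC content came from GENCODE M21 for 46005 of 46517 identifiers.

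After the filter of the study's methods (at least 1 cpm in 1 pool), libraries were scaled by TMM and compared with limma voom (limma 3.58.1, edgeR 4.0.16, R 4.3.3). Calls were at a Benjamini-Hochberg adjusted p under 0.05 over all 14967 genes, two-sided. The GC correction subtracted from each pool its robust loess fit on GC content, with a span of 0.3. Depth was 23865507 to 35200685 counts per pool, and floors of 3 counts cover counting error only. Pools with the same replicate number deviated together (r = 0.510, 0.389 and 0.264 across genes, against a mean of −0.198 for different numbers). The numbers of the labels were therefore taken as pairs, although the labels do not say what they stand for. The pairing was thus chosen from these same counts, and calls made only with the block rest on that choice. Alternatives were edgeR's quasi-likelihood test, DESeq2 1.42.0, other scalings and filters, sample weights, the replicate block, the GC correction and each pool left out. The limma fits with 6 pools (plain, with the block and with the GC correction), edgeR and DESeq2 were tested on simulated data. The simulation held no GC trend, no replicate pairs and no outlying pool. It therefore cannot show how these fits handle such features of the data.

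The 10 genes, the lists and the tests were chosen with earlier results of these data known. Genes named beside the 10 are *Hdac3* and the 5 nearest by correlation. Of each list, the 2 with the smallest p and the 1 with the highest RPKM are also named. Chosen after their values were seen were *Lyz1*, *Lyve1*, *F13a1*, *Chil3*, *Xcr1*, *Clec9a*, *Cd209a*, *Fscn1* and the called genes of each list. The 4 promoter motifs were chosen likewise.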

Additional observations from a re-analysis of the deposited data

How the results depend on the processing

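The number of the 10 genes called down-regulated was 1 and became 3 with DESeq2 and with library sizes alone, 2 under the replicate block in both forms (plain and GC-corrected), 0 with the GC correction, and 0 to 1 with a pool left out, where fewer pools remain. The number called upregulated was 0, became 1 with sample weights, and ranged from 0 to 2 with a pool left out. Of the other macrophage genes 1 was called upregulated, against 5 with DESeq2, 20 with sample weights, 8 under the replicate block, 0 after GC correction, 7 with block and GC correction and 0 to 13 with a pool left out. Of the same genes 13 were down-regulated, against 20 with DESeq2, 28 with library sizes alone, 24 under the replicate block, 4 after GC correction and 0 to 21 with a pool left out. The share of all tested genes called is not given for edgeR, DESeq2, sample weights, library sizes alone or an unadjusted limma p under 0.05. It is also not given for a left-out pool other than floxed replicate 3. Such counts, here and above, therefore cannot be read against a background. The median log2 fold change of the 10 genes, −0.86, was 0.21 with sample weights and −1.37 to 0.0769 with a pool left out. Library sizes alone moved the median of all genes by −0.85 and the GC correction by 0.11.

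Directions that turned were those of *Adgre1* (0.48), *Lyz2* (0.0826), *Gpnmb* (0.33) and *Ccl6* (0.26) with sample weights. With a pool left out, *Adgre1* ranged from −0.76 to 0.76, *Gpnmb* from −1.55 to 0.18 and *Ccl6* from −1.52 to 0.115, each above 0 without floxed replicate 3. *Mrc1* turned with edgeR (−0.25), DESeq2 (−0.20), library sizes alone (−0.50), the GC correction (−0.40), block and GC correction (−0.34), and with a pool left out, from −0.19 to 1.298 (−0.0646 without floxed replicate 2). *Itgax* turned with library sizes alone (−0.62) and with a pool left out, from −0.24 to 0.53, and *Nfkbia* with library sizes alone (−0.44). Relative to *Cd68* in place of *Adgre1*, the log2 differences were 0.85 for *Lyz2*, 0.58 for *Cd163*, 0.12 for *Trem2* and 0.70 for *Gpnmb*, and *Itgax* relative to *Adgre1* ranged from −0.27 to 1.22 with a pool left out. The cause of these turns was not tested. Among the 10 genes the replicate block changed the call of *Cd163* alone, and on GC-corrected values those of *Csf1r* and *Cd163*. *Trem2*, with 17 to 629 reads per pool, and *Ccl2*, with 48 to 263, are the genes whose depth limits them most.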
